A study of Mus musculus with 24 samples.

Results

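The comparison described here sets total RNA of the injured mouse spinal cord on day 42 after contusion against total RNA on day 10. Its members are the 3 libraries of day 42 and the 3 libraries of day 10 whose columns in the count table carry the mark for input RNA, 6 of the 24 libraries of the series. The mice were plp-cre;rpl22HA animals, in which a Cre driven by the Plp promoter tags ribosomal protein RPL22 with HA in oligodendrocytes (OLs). The Cre is the tamoxifen-inducible CreERT2, and mice of both days carried this genotype and were given tamoxifen before injury. Female mice, 10 to 12 weeks old by the labels, received a contusion at T9 with an IH impactor set to 50 kdyn; the study's methods give a younger age at injury. Input RNA is RNA of the cleared tissue lysate before the HA pulldown, so it holds RNA of every cell type. Each library is a pool of tissue from 2 mice. The other 18 libraries hold input RNA of naive cord and of day 2 and RNA of OL ribosomes from all 4 groups. Day 42 mice were injured at the same age as day 10 mice and were therefore older when tissue was taken, so age and time since injury cannot be told apart here.

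After a contusion, monocytes and microglia clear myelin and dead cells over the first weeks, and perivascular fibroblasts lay down a collagen-rich core that astrocytes wall off. Day 10 falls in the subacute phase, when phagocytes loaded with lipid and dividing stromal cells are abundant, and day 42 in the chronic phase, when the scar has matured. Fibrillar collagens are secreted as procollagen chains, trimmed and cross-linked outside the cell, while type IV collagen forms the sheet of basement membranes around vessels and scar borders.

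The 3 day 10 libraries held 27135366, 28097504 and 27643104 counts on genes and the 3 day 42 libraries 29050061, 28503272 and 28459123, so that 3 counts correspond to 0.103 to 0.111 CPM, the unit of counts scaled to library size. All levels below are CPM after TMM scaling, and libraries are always given in the order 1, 2, 3. The labels of day 42 library 2 conflict: its title and source name the OL kind of RNA, and its description and column name the input. Its OL markers summed to 23348 CPM, within the 21076 to 24144 CPM of the 5 other libraries compared and far from the 105250 to 145380 CPM of the 6 OL libraries of these days, and it is used as total RNA. This library also stood apart in its content. Its neuron markers summed to 5795 CPM, against 3955 and 3743 CPM in the other 2 libraries of day 42 and 3024 to 3456 CPM on day 10, and on the first principal component of the 12 total RNA libraries (45.9% of the variance) it scored -0.40 against 21.7 and 24.8 for day 42 libraries 1 and 3, 41.9 to 51.4 for day 10 and -111 to -107 for naive cord. Counts of called genes are therefore also given without it. Day 2 library 2 went against the labelled sex: its 4 Y-linked genes held 2604 counts, and the OL library of that pool 2414, against 0 to 13 in each of the other 22 libraries and at most 2 on days 10 and 42. Fewer cells of a type and less RNA per cell cannot be told apart in whole tissue.

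Of 17167 genes tested, 35 were lower on day 42 (0.204% of those tested) and 10 were higher (0.0583%) with q under 0.05 in the model fitted to all 24 libraries, q being the p of edgeR's quasi-likelihood F test after Benjamini-Hochberg adjustment. Of these, 13 were lower by more than 1 log2 unit and 0 were higher by as much, while 1779 genes had an unadjusted p under 0.05. That model shares its estimate of the spread between replicates with the OL libraries. The common biological coefficient of variation was 0.189 among the 12 total RNA libraries, 0.403 among the 12 OL libraries and 0.299 over all 24. Fitted to the 12 total RNA libraries alone, an alternative listed in the plan, the same test gave 645 genes lower (3.79% of 17007) and 437 higher (2.57%), 155 and 20 of them past 1, and all 45 genes of the first fit were among them. Without day 42 library 2 this second fit gave 266 lower (1.57%) and 109 higher (0.643%), and without day 10 library 2 it gave 144 lower and 37 higher. The first fit called 0 genes when either of these 2 libraries was left out. Day 2 library 2 enters only the spread, the scaling and the filter, and without it the fit of total RNA gave 828 lower and 718 higher, with 1080 of the 1082 genes among them. Without it and the OL library of its pool the first fit gave 40 lower and 12 higher. The adjusted p-values of the fits are given below as q(all) for 24 libraries and q(total) for 12, and a gene is said to have risen or fallen where q(total) was under 0.05. Each list's count in the fit of total RNA is to be read against the 3.79% lower and 2.57% higher of all genes, and its count without day 42 library 2 against 1.57% and 0.643%. DESeq2's Wald test gave 150 lower and 136 higher on all libraries. The median log2 fold change over all tested genes was 0.02 in the first fit and 0.00 in the second.

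**Figure D1:**
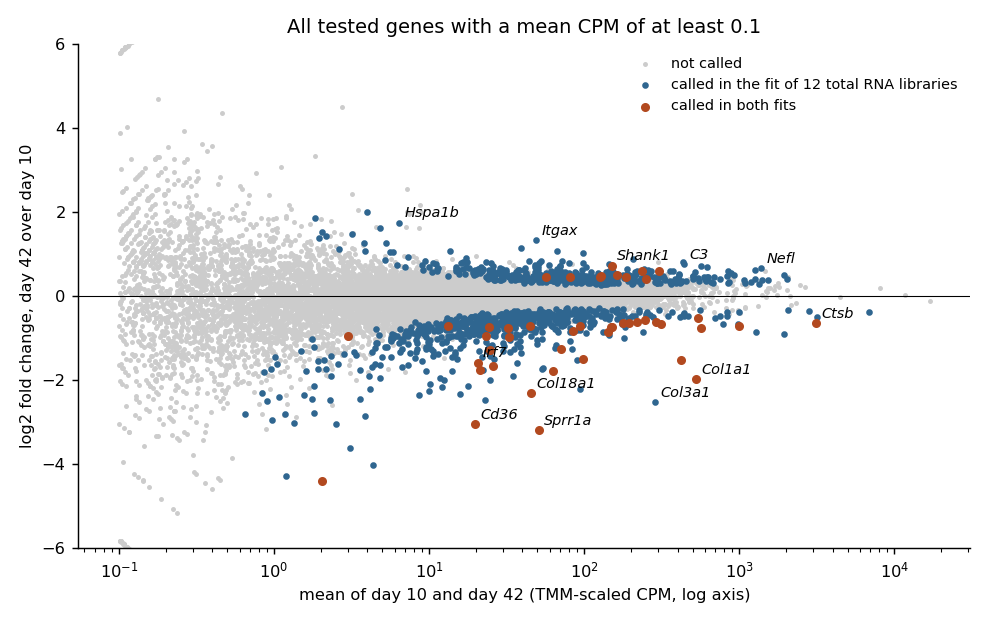
Log2 fold change of day 42 over day 10 in the fit of 12 total RNA libraries against the mean level of each gene (TMM-scaled CPM, log axis, change axis limited to 6 either way). Orange points passed both fits, blue points only the fit of 12 libraries, and grey points neither; Sprr1a, Cd36 and Col18a1 lie low among the orange points.

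Many collagen genes fell. Of 42 collagen genes tested, 8 were lower in the fit of 24 libraries and 21 in the fit of 12, none was higher in either, and the median log2 fold change was -0.91 against 0.00 over all genes. In 24 of the 42 all 3 day 42 libraries lay below all 3 day 10 libraries, which was so for 12.8% of all tested genes, and in 1, Col4a3, they lay above (14.5% of all genes). Without day 42 library 2, 19 of the 42 passed in the fit of total RNA. The list's summed level was 2996 to 3357 CPM on day 10 and 804 to 1232 CPM on day 42, the lowest value being that of library 2, against a mean of 269.6 CPM in naive cord and 1006 CPM on day 2.

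The chains of type I collagen, the main fibrillar collagen of scars, fell together. Col1a1 (ENSMUSG00000001506, chr11:94936224-94953042) stood at 793, 899 and 823 CPM on day 10 and 252, 145 and 254 CPM on day 42. The log2 fold change was -1.95 ± 0.33 (SE, n = 3 per day, q(all) = 0.014, q(total) = 0.00012). Its partner chain gene Col1a2 (ENSMUSG00000029661, chr6:4504814-4541544) stood at 616, 674 and 587 CPM on day 10 and 252, 160.0 and 253 CPM on day 42, with a log2 fold change of -1.50 ± 0.22 (q(all) = 0.00606). Day 42 levels of both stayed above the naive mean, which was 8.54 CPM for Col1a1 and 36.7 CPM for Col1a2. Col3a1 (ENSMUSG00000026043, chr1:45311538-45349706), the type III chain of early scar, stood at 468, 536 and 449 CPM on day 10 and 79, 66.8 and 109.5 CPM on day 42. This change of -2.51 ± 0.54 missed the threshold in the fit of 24 libraries (q(all) = 0.0504) and passed in the fit of 12 (log2 fold change -2.53 ± 0.22, q(total) = 3.74e-06).

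The type V chain Col5a2, which nucleates type I fibrils, fell from 39.1 ± 3.86 CPM (mean ± SD) to 12.6 ± 2.80 CPM (log2 fold change -1.64, q(all) = 0.016), and Col5a1 from 55.5 ± 3.34 to 18.8 ± 6.73 CPM (-1.58, q(total) = 0.00651). The type V chain Col5a3 had 0.11 (q(total) = 0.807) and did not pass. All 3 measured main chains of the beaded-filament type VI collagen fell, with log2 fold changes of -1.25 for Col6a1, -0.89 for Col6a2 and -1.76 for Col6a3. Col6a2 did not pass without day 42 library 2 (q(total) = 0.0911). Col6a3 also passed in the fit of 24 libraries (q(all) = 0.01), but DESeq2's Wald test on all libraries did not call it.

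Among collagens of basement membranes, Col18a1 and 3 of the 6 type IV chains fell. Col18a1 (ENSMUSG00000001435, chr10:77052178-77166548), whose C-terminal fragment is endostatin, stood at 73.5, 85.9 and 67.7 CPM on day 10 and 17.3, 10.8 and 18.5 CPM on day 42. It had the smallest p of the list in the fit of total RNA, with a log2 fold change of -2.31 ± 0.17 (q(total) = 7.05e-07, q(all) = 0.00606). The head-to-head pair of type IV genes moved together. Col4a1 (ENSMUSG00000031502, chr8:11198423-11312826) stood at 139, 174 and 147 CPM on day 10 and 27.7, 31.9 and 40.8 CPM on day 42, and Col4a2 (ENSMUSG00000031503, chr8:11312805-11449287) at 90.4, 104 and 95.4 CPM on day 10 and 30.9, 24 and 30.6 CPM on day 42. The log2 fold changes were -2.22 ± 0.20 and -1.78 ± 0.17 in the fit of 12, with q(all) of 0.0797 and 0.0445. Col4a2 no longer passed in the fit of 24 libraries without both libraries of the day 2 pool with Y-linked counts. On day 42 all 3 genes stayed above their naive means of 17.4, 20.5 and 4.62 CPM (Col4a1, Col4a2, Col18a1). Nid1, which encodes nidogen, a linker of laminin and type IV collagen, stood at 97, 106 and 95.8 CPM on day 10 and 51.7, 31.8 and 43.9 CPM on day 42 and fell by 1.23 on the log2 scale (q(all) = 0.0154). Col4a5 fell as well (-1.31, q(total) = 0.00316), whereas Col4a4 and Col4a6 had -0.90 and -0.74 and did not pass (q(total) = 0.453 and 0.231), and neither did Col4a3, at under 3 CPM in every library (0.80 ± 0.82, q(total) = 0.624).

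Other collagens that fell were Col8a1, the short-chain collagen of vessel walls (-2.49), Col20a1 (-2.09), Col7a1 (-2.22), Col14a1 (-1.48), Col11a1 (-1.37), Col9a3 (-0.97), Col2a1 (-0.95), Col15a1 (-0.91) and Col16a1 (-0.70). Col9a3 and Col2a1 were among the 8 of the fit of 24 libraries, and Col2a1 did not pass without day 42 library 2 (q(total) = 0.108). Members that did not pass included Col23a1 (-0.21), Col25a1 (0.19) and Col12a1 (-0.45).

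**Figure D2:**
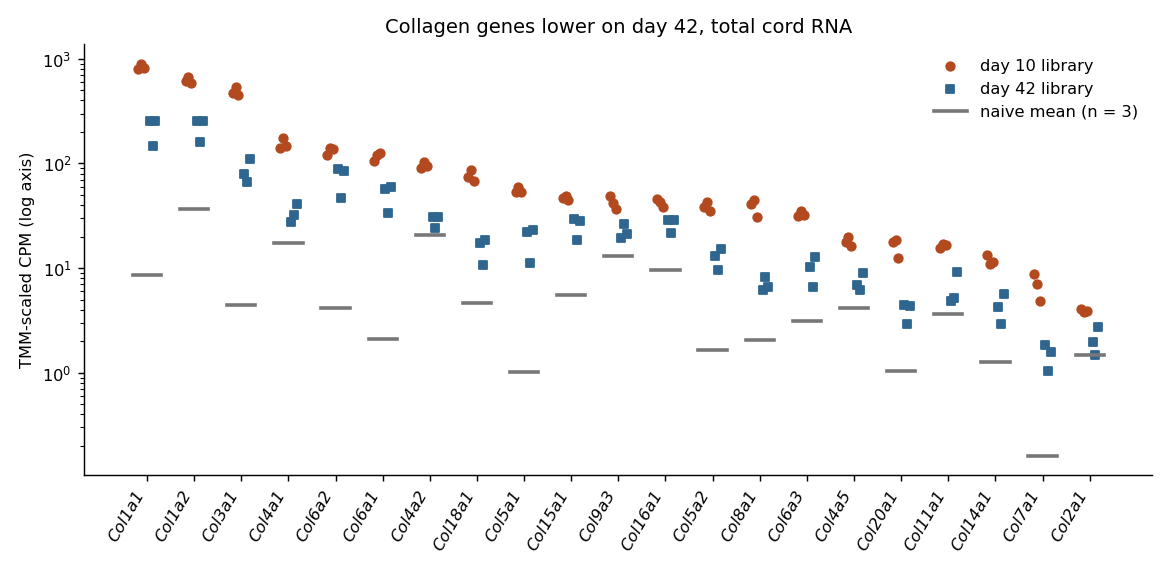
Level of the 21 collagen genes that fell, in each day 10 library (circles) and each day 42 library (squares), with the naive mean as a line (TMM-scaled CPM, log axis). In each gene the 3 squares lie below the 3 circles, and in 20 of the 21 they lie above the naive line.

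Promoters of collagens that fell are shown for their layout. The windows run from 250 bases before to 50 after the annotated start (RefSeq, GRCm38.p6), 5′ to 3′ on the gene's strand. Col1a2 lies at chr6:4505368-4505667 on the plus strand, and capitals mark CCAAT or its reverse complement ATTGG.
Col1a2: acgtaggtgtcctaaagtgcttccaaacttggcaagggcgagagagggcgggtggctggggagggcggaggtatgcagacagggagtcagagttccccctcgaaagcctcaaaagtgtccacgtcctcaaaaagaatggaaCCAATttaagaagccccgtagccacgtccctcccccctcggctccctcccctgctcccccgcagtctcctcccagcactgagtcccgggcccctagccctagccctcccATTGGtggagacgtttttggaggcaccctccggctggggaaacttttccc
The windows of Col4a1 (chr8:11312777-11313076, minus strand) and Col4a2 (chr8:11312555-11312854, plus strand) overlap, and capitals mark the 78 bases they share, each read on its own strand.
Col4a1: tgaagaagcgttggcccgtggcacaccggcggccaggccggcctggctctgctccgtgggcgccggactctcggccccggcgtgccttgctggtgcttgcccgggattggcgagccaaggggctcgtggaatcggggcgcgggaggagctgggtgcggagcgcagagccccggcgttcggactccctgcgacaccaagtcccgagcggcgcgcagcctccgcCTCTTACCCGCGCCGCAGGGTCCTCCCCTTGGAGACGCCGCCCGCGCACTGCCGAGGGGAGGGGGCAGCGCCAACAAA
Col4a2: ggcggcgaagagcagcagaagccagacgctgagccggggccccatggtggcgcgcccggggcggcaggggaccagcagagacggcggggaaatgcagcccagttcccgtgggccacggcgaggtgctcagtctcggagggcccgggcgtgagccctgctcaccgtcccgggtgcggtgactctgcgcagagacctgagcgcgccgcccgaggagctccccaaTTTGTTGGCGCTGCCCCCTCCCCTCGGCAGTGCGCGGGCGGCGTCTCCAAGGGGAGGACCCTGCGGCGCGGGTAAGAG
Of the 33 collagen genes with a window (36 windows), CCAAT on either strand stood in 12 windows (33.3%), and among the windows of genes that fell in 8 of 18 (44.4%), against 37.4% of all 32851 promoter windows. This search was added after the values were seen.

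Genes that process and cross-link collagen fell in part. Of 28 tested, 12 were lower and 0 higher in the fit of total RNA, 0 passed in the fit of 24 libraries, and without day 42 library 2 there were 4 lower (Loxl1, Serpinh1, Lum and Bmp1) and 1 higher (Fmod, 0.60, q(total) = 0.00766). The list's median log2 fold change was -0.56. Loxl1, a lysyl oxidase, stood at 47.5, 46.8 and 48.5 CPM on day 10 and 21.7, 11 and 24.6 CPM on day 42 (-1.34 ± 0.21, q(total) = 0.00173). Serpinh1, the collagen chaperone HSP47, went from 188 ± 19.4 to 101 ± 20.8 CPM (-0.92, q(total) = 0.0039). Lum, a fibril-binding proteoglycan, and Bmp1, the procollagen C-proteinase, had -1.50 and -0.75. Dcn, another fibril-binding proteoglycan, had -0.54 ± 0.25 and did not pass (q(total) = 0.209).

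Among matrix proteases and their inhibitors, 9 of 32 tested genes fell (28.1%, against 3.79% of all genes), 0 rose, 0 passed in the fit of 24 libraries and 6 passed without day 42 library 2 (1.57% of all genes). Adam8 stood at 40.3, 53.6 and 33.3 CPM on day 10 and 22.4, 13.8 and 16.2 CPM on day 42 (-1.30 ± 0.19, q(total) = 0.000939). Mmp14, a membrane-anchored collagenase, went from 109 ± 8.65 to 53 ± 11.6 CPM (-1.06, q(total) = 0.00109). Adam12 had -1.34 and the gelatinase gene Mmp2 -1.12, both past the threshold. Of 24 fibroblast markers 6 fell and 0 rose, 3 without day 42 library 2, among them Fbln2 (-1.10), Lum, Pdgfrb (-0.86) and Fbn1 (-1.24). The fibroblast list's sum was 1498 to 1545 CPM on day 10 and 1274 to 1518 CPM on day 42, so the 2 days met, with the lowest value in day 42 library 2. Of 15 mural cell markers, genes of pericytes and vascular smooth muscle, 4 fell and 0 rose (3 without day 42 library 2), including Anpep (-1.23) and Rgs5 (-0.76). Among 24 proteoglycan and matrix genes 3 fell (Vcan -0.71, Fn1 -0.64, Tnr -0.45), 12.5% against 3.79% of all genes. The 1 that rose (Hapln4 0.75) is 4.17% of the list, near the 2.57% of all genes. Without day 42 library 2 only Vcan passed.

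Sprr1a (ENSMUSG00000050359, chr3:92483952-92485895), a small proline-rich protein gene induced in injured and regenerating neurons, stood among the genes with the smallest p. Its level was 82, 114 and 79 CPM on day 10 and 13, 8.27 and 9.34 CPM on day 42. The log2 fold change was -3.17 ± 0.53 (q(all) = 0.013, q(total) = 7.05e-07). It was at a mean of 0.347 CPM in naive cord and already at 78.1 CPM on day 2. Ecel1, a neuronal endopeptidase-like gene induced by nerve injury, stood at 135, 167 and 131 CPM on day 10 and 58.7, 44.2 and 54 CPM on day 42 (log2 fold change -1.46 ± 0.29, q(all) = 0.0299), with day 42 near its naive mean of 51.7 CPM. Of 22 immediate early and axon injury genes, Atf3 (-1.20, q(total) = 0.00136) and Sox11 (-0.71, q(total) = 0.0431) fell (9.09%, against 3.79% of all genes). The 1 that rose, Nr4a1 (0.64, q(total) = 0.0478), is 4.55% of the list, near the 2.57% of all genes. Without day 42 library 2 there were 1 lower and 1 higher. Atf3 encodes a transcription factor switched on in neurons with cut axons, and it stood at 41.9, 45.7 and 38.4 CPM on day 10 and 19.6, 12.4 and 23.7 CPM on day 42. Jun, its partner in AP-1 dimers, had -0.25 (q(total) = 0.185), and Gap43, a growth cone gene, had -0.24 (q(total) = 0.0936). Sox11 did not pass without day 42 library 2 (q(total) = 0.166).

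The Sprr1a window (chr3:92485832-92486131, minus strand, RefSeq, GRCm38.p6) is shown because it holds 2 copies of the AP-1 letters TGAGTCA, in capitals, starting 146 and 116 bases before the start site.
Sprr1a: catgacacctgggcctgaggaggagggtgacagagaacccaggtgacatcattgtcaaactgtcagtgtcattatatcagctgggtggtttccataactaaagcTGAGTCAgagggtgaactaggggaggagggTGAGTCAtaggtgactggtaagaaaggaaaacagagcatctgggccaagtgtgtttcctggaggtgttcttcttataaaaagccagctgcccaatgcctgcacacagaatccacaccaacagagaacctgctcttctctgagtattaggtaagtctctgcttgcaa
TGAGTCA or its reverse complement TGACTCA stood in 5.2% of all 32851 windows. This match was looked for after the values were seen, and whether the letters are bound was not measured.

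Many genes of lipid-laden phagocytes fell, and Itgax rose. Of 29 tested, 3 were lower in the fit of 24 libraries (Cd36, Ctsb and Fabp5), 16 were lower and 1 higher in the fit of 12, and 7 lower and 1 higher without day 42 library 2. The 1 higher in the fit of 12 is 3.45% of the list, near the 2.57% of all genes. The median log2 fold change was -0.49. Cd36 (ENSMUSG00000002944, chr5:17781690-17888801), a scavenger receptor that takes up oxidised lipid, stood at 34.4, 42.8 and 28.7 CPM on day 10 and 3.89, 2.97 and 6.06 CPM on day 42. The log2 fold change was -3.03 ± 0.56 (q(all) = 0.0281, q(total) = 7.72e-05). DESeq2's Wald test on all libraries did not call Cd36. Ctsb, a lysosomal cysteine protease gene, stood at 3632, 4308 and 3349 CPM on day 10 and 2589, 2078 and 2697 CPM on day 42 (-0.62 ± 0.12, q(all) = 0.0281). Fabp5, a fatty acid carrier, went from 216 ± 14.5 to 141 ± 6.72 CPM (-0.61, q(all) = 0.048), and did not pass in that fit without both libraries of the day 2 pool with Y-linked counts. In the fit of 12, Acp5 (-1.79), the lysosomal lipase gene Lipa (-0.73), the lipid droplet gene Plin2 (-0.80), the scavenger receptor gene Msr1 (-0.86), Lyz2 (-0.90), Gpnmb (-0.85) and Trem2 (-0.49) fell too. Gpnmb stood at 1536, 2071 and 1292 CPM on day 10 and 983, 621 and 1149 CPM on day 42, and against a naive mean of 2.29 CPM it stayed high on day 42.

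Itgax (ENSMUSG00000030789, chr7:128129547-128150657), which encodes the integrin CD11c, rose. It stood at 22.9, 35.3 and 24.5 CPM on day 10 and 70.7, 56.1 and 85.2 CPM on day 42. The log2 fold change was 1.33 ± 0.21 (q(total) = 0.00132, and 0.00119 without day 42 library 2), and the fit of 24 libraries did not call it (q(all) = 0.256). It was at 0.592 CPM in naive cord and 3.80 CPM on day 2, so day 42 was the highest of the 4 groups. Other phagocyte genes did not pass: Cst7 had 0.27 ± 0.15, Lgals3 -0.24 ± 0.28, Lpl -0.30 ± 0.23 and Cd68 -0.44 ± 0.16.

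Some lysosomal genes fell too. Of 35 tested, 4 were lower in the fit of 24 libraries, 10 lower and 0 higher in the fit of 12 and 6 without day 42 library 2, with a median of -0.28. Lamp2, a lysosomal membrane protein gene, stood at 267, 284 and 234 CPM on day 10 and 171, 170.5 and 182 CPM on day 42 (-0.58 ± 0.09, q(all) = 0.01). Grn, the progranulin gene, went from 714 ± 115 to 428 ± 76.9 CPM (-0.74, q(all) = 0.016). Gla and Hexa, which encode enzymes of glycolipid breakdown, had -0.73 (q(all) = 0.029) and -0.60 (q(all) = 0.0281). Psap, which encodes activators of glycolipid breakdown, fell by less (-0.36, q(total) = 0.0226). Other lysosome or phagosome genes called in the fit of 24 libraries were Creg1 (-0.84), Lgmn (-0.51), Sgsh (-0.71), Unc93b1 (-0.71), which carries Toll-like receptors to endosomes, and Mfge8 (-0.80), a bridge to apoptotic cells. These 5 were named after their values were seen.

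Among 18 iron and heme genes 6 fell (33.3%, against 3.79% of all genes) and 0 rose, 3 without day 42 library 2 (1.57% of all genes). The ferritin light chain gene Ftl1 stood at 1199, 1380 and 1104 CPM on day 10 and 814, 597 and 855 CPM on day 42 (-0.70 ± 0.15, q(all) = 0.0447), and Slc40a1, the iron exporter ferroportin, at 23, 22.2 and 17.3 CPM on day 10 and 9.07, 8.66 and 7.46 CPM on day 42 (-1.34 ± 0.17, q(total) = 0.000294). Hmox1, the heme-degrading enzyme, had -0.64 (q(total) = 0.0209). Of 15 lipid efflux genes 3 fell (against 3.79% of all genes) and 0 rose: the cholesterol exporter gene Abca1 went from 238 ± 59.8 to 121 ± 35.1 CPM (-0.999, q(total) = 0.00449), Pltp had -0.74 and Lpcat3 -0.49. Lpcat3 did not pass without day 42 library 2 (q(total) = 0.103). Apoe, the gene with the most counts in each of the 6 libraries, stood at 17074, 19652 and 15740 CPM on day 10 and 17932, 12853 and 18508 CPM on day 42 and did not pass (-0.11 ± 0.12, q(total) = 0.622), and its naive mean was 1820 CPM.

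Markers of infiltrating monocytes fell in part, 8 of 21 with 0 rising, 5 without day 42 library 2, and a median of -0.93. The list's sum was 446 to 511 CPM on day 10 and 319, 215 and 310 CPM on day 42, and the part of cell number in this fall was not tested. In the fit of 24 libraries 1 of them passed. Ms4a7, a macrophage marker, stood at 48.6, 55.3 and 45.3 CPM on day 10 and 23.8, 12.8 and 26.9 CPM on day 42 (-1.25, q(total) = 0.00651). The monocyte chemokine receptor gene Ccr2 stood at 6.53, 6.75 and 5.91 CPM on day 10 and 2.26, 0.809 and 2.16 CPM on day 42 (-1.89, q(total) = 0.00694). Of 38 chemokine genes 4 fell (10.5%, against 3.79% of all genes), among them Ccr2, Cxcl5 and Cxcr2. The 1 that was higher, Cxcl14 (0.41), is 2.63% of the list, near the 2.57% of all genes, and did not pass without day 42 library 2 (q(total) = 0.103). Cxcl5 and Cxcr2 were under 3 CPM in every library. Without day 42 library 2 there were 2 lower, Ccr2 among them, and without day 2 library 2 there were 7 lower and 2 higher.

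Some microglia markers fell, by smaller amounts. Of 19 homeostatic microglia genes 9 fell and 0 rose, 3 without day 42 library 2 (Gpr34, Tmem119 and P2ry12), 0 passed in the fit of 24 libraries, and the median was -0.43. Gpr34 stood at 38.8, 39.9 and 39.9 CPM on day 10 and 19.9, 18.5 and 24.4 CPM on day 42 (-0.94 ± 0.13, q(total) = 0.000486). Tmem119 had -0.63, the purinergic receptor gene P2ry12 -0.65, and Csf1r, the receptor that keeps microglia alive, -0.45 (q(total) = 0.0291). Cx3cr1, Csf1r and the other members that fell stayed above their naive means on day 42, except P2ry12, whose day 42 values of 25.3, 31.5 and 26.8 CPM lay around its naive mean of 29.7 CPM.

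Of 25 complement genes tested, 5 fell (against 3.79% of all genes) and 1 rose (4.0%, near the 2.57% of all genes) in the fit of total RNA, 3 and 1 without day 42 library 2, and 0 passed in the fit of 24 libraries. Cd93, a receptor on endothelium and myeloid cells that was first found as a C1q receptor, stood at 35.2, 35.8 and 31.3 CPM on day 10 and 8.01, 10.1 and 12.4 CPM on day 42 (-1.77 ± 0.17, q(total) = 8.17e-06, q(all) = 0.186). Cfp, properdin, had -1.94, C3ar1, the receptor of the C3a fragment, -0.85, and C1qc -0.46. C3 itself, the substrate of all pathways of the cascade, rose. It stood at 338, 335 and 308 CPM on day 10 and 603, 374 and 702 CPM on day 42, with no overlap but with library 2 close to the day 10 range. Its log2 fold change was 0.75 ± 0.19 (q(total) = 0.0291, q(all) = 0.741), and 0.98 without day 42 library 2 (q(total) = 0.00481).

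Part of the interferon-stimulated genes fell. Of 35 tested, 27 had all day 42 libraries below all day 10 libraries (12.8% of all genes did) and 0 had them above (14.5%). In the fit of total RNA 14 fell (3.79% of all genes) and 0 rose, and 7 passed as lower without day 42 library 2 (1.57%). The median log2 fold change was -0.82, and 35 of 35 fitted changes were below 0. Irf7 (ENSMUSG00000025498, chr7:141262706-141266481), the transcription factor that amplifies type I interferon production, was the 1 member called in the fit of 24 libraries, which called 2 without both libraries of the day 2 pool with Y-linked counts. It stood at 21, 37.4 and 33.7 CPM on day 10 and 10.7, 10.5 and 9.96 CPM on day 42 (-1.56 ± 0.30, q(all) = 0.0268, q(total) = 0.00285), above its naive mean of 1.72 CPM on both days. Ifit2 stood at 34.3, 34.8 and 30.9 CPM on day 10 and 17.9, 19 and 22.3 CPM on day 42 (-0.78, q(total) = 0.00211), and the antiviral genes Rsad2 and Oasl2 had -1.63 and -1.06. Stat2, which carries the signal of interferon receptors, had -0.69 and did not pass without day 42 library 2 (q(total) = 0.117). Isg15 did not overlap between the days but did not pass (-0.997 ± 0.37, q(total) = 0.12).

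Of 20 class I antigen presentation genes 5 fell (against 3.79% of all genes) and 0 rose, by small amounts: H2-K1 -0.48, H2-D1 -0.47, B2m -0.38, H2-T22 -0.43 and Psme2 -0.39. None of the 20 passed without day 42 library 2 or in the fit of 24 libraries. Reads of near-identical class I genes may be shared among them. The 14 class II genes gave 0 calls in edgeR's test of either fit (median -0.06), with Cd74, the invariant chain, at 117, 135 and 128 CPM on day 10 and 137, 126 and 142 CPM on day 42 and H2-Aa at 42.8, 46.3 and 51 CPM on day 10 and 45.3, 35 and 46.8 CPM on day 42. The B and plasma cell list also gave 0 calls among 17 tested (median 0.45, mostly at low levels). Its immunoglobulin heavy and light chain genes, such as Ighm and Igkc, were not tested. Of 25 T and NK cell genes 1 fell (4.0%, near the 3.79% of all genes), Cd28, a co-stimulatory receptor gene, standing at 6.79, 7.55 and 5.91 CPM on day 10 and 0.315, 0.390 and 2.11 CPM on day 42 (-2.86 ± 0.59, q(total) = 0.0104). Trac, Trbc1, Trbc2 and Gzma of that list were not tested.

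**Figure D3:**
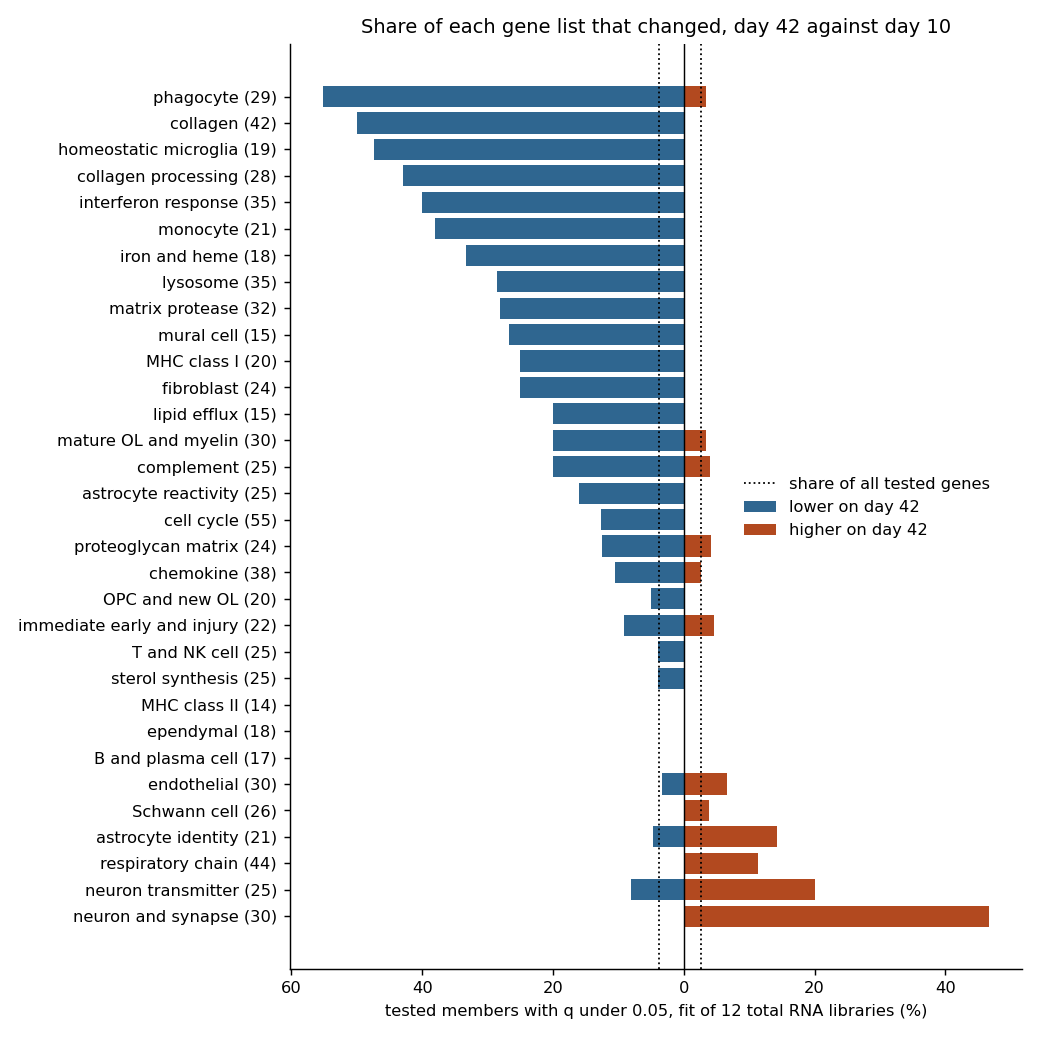
Share of the tested members of each gene list (number in parentheses) that were lower (blue) or higher (orange) on day 42 with q under 0.05 in the fit of 12 total RNA libraries. Dotted lines mark 3.79% and 2.57%, the shares of all tested genes; phagocyte and collagen genes have the longest blue bars, and neuron and synapse genes the longest orange bar.

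Genes of cell division fell in small number. Of 55 tested, 7 fell (12.7%, against 3.79% of all genes) and 0 rose, 3 without day 42 library 2 (Tpx2, Mki67 and Ccna2, against 1.57%), 0 passed in the fit of 24 libraries, and the median was -0.36. Mki67, which coats mitotic chromosomes, stood at 11, 15 and 14 CPM on day 10 and 5.84, 2.88 and 8.71 CPM on day 42 (-1.22 ± 0.26, q(total) = 0.011), and had 69.4 ± 7.41 CPM on day 2. The spindle gene Tpx2 stood at 6.82, 7.01 and 8.66 CPM on day 10 and 3.23, 3.45 and 4.84 CPM on day 42 (-0.99, q(total) = 0.00825). Ccnb2 and Ccna2, mitotic cyclins, had -1.22 and -0.78, Bub1 and Cenpa, of the kinetochore, -1.73 and -1.39, and the replication helicase subunit gene Mcm3 -0.52. Top2a had -0.64 ± 0.25 and did not pass (q(total) = 0.142).

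Promoters of 2 genes of this list are shown for the letters TTTGAA, the core of the cell cycle genes homology region (CHR), and CCAAT, each on either strand and in capitals (RefSeq, GRCm38.p6). Ccnb2 lies at chr9:70421505-70421804 and Mki67 at chr7:135716330-135716629, both on the minus strand.
Ccnb2: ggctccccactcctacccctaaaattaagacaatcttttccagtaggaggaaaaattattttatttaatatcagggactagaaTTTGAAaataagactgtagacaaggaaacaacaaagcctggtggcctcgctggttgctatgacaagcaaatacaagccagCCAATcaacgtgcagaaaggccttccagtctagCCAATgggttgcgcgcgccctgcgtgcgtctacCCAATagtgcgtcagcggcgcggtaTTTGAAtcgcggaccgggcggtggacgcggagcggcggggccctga
Mki67: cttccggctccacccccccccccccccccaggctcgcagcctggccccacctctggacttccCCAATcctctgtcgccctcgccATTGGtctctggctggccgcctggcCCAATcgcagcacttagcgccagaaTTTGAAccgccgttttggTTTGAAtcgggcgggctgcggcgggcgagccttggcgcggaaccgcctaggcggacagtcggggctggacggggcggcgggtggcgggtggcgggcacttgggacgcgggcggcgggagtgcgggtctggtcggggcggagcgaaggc
Ccnb2 holds 2 TTTGAA and 3 CCAAT, and Mki67 holds 2 and 3. Of the 50 windows of 46 genes of the list, 28 held TTTGAA or TTCAAA (56%), 37 held CCAAT or ATTGG (74%) and 25 held both (50%), against 17.9%, 37.4% and 6.95% of all 32851 windows. Among the 5 of the 7 genes that fell with a window, 3 held TTTGAA or TTCAAA and 5 held CCAAT or ATTGG.

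Part of the neuronal genes rose. Of 30 neuron and synapse genes 14 rose (2.57% of all genes did) and 0 fell in the fit of total RNA, 24 had every day 42 library above every day 10 library (14.5% of all genes), and the median log2 fold change was 0.40. None passed in the fit of 24 libraries, and without day 42 library 2 the count was 3 (Kif5a, Syn1 and Nefl, against 0.643% of all genes) and the median 0.27. The list's sum was 12385 to 13431 CPM on day 10 and 16164, 22530 and 15044 CPM on day 42, against a naive mean of 27194 CPM. Whether the content of library 2 sets the size of these rises was not tested beyond leaving it out. The sum of the 26 Schwann cell markers was also highest in library 2, at 1441 CPM against 821 and 980.0 CPM in libraries 1 and 3 and 692 to 1006 CPM on day 10, and that list's median went from 0.28 to 0.04 without it. The neurofilament light chain gene Nefl stood at 1063, 1039 and 1073 CPM on day 10 and 1387, 2480 and 1265 CPM on day 42, so that library 2 held the highest value and libraries 1 and 3 lay nearer to day 10. Its log2 fold change was 0.67 ± 0.16 (q(total) = 0.023), and 0.30 without library 2 (q(total) = 0.0474). Nefm had 0.62 and Nefh 0.68, which became 0.26 (q(total) = 0.219) and 0.27 (q(total) = 0.198). The axonal motor gene Kif5a stood at 761, 694 and 823 CPM on day 10 and 957, 1318 and 1004 CPM on day 42 (0.50 ± 0.10, q(total) = 0.0102), and the synaptic vesicle gene Syn1 at 264, 261 and 276 CPM on day 10 and 392, 397 and 344 CPM on day 42 (0.47 ± 0.10, q(total) = 0.0141).

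Sncg, gamma-synuclein, and the intermediate filament gene Prph, both high in motor and sensory neurons, had 1.03 and 1.06, with 204 and 154 CPM in library 2 against at most 102 and 68.8 CPM in the others. Without library 2 they had 0.59 (q(total) = 0.0617) and 0.47 (q(total) = 0.23) and did not pass. Snap25 had 0.32 ± 0.13 and did not pass (q(total) = 0.142). Of 25 transmitter genes 5 rose (against 2.57% of all genes) and 2 fell (8.0%, against 3.79%). Pvalb, a calcium-binding protein gene of fast-spiking and sensory neurons, stood at 58, 44.9 and 55.5 CPM on day 10 and 83.3, 109 and 71.3 CPM on day 42 (0.71, q(total) = 0.0039), and it was the 1 rising member left without library 2. Chat and Slc18a3, genes of acetylcholine synthesis and loading, had 0.90 and 0.83, and Slc32a1, a vesicle transporter of inhibitory transmitters, 0.51. Penk and Npy, both neuropeptide genes, were the 2 that fell. Penk stood at 193, 229 and 214 CPM on day 10 and 147, 129.8 and 132 CPM on day 42 (-0.66 ± 0.10, q(total) = 0.00129), and Npy at 31.2, 46 and 44.6 CPM on day 10 and 29.9, 22.4 and 20.5 CPM on day 42 (-0.77 ± 0.15, q(total) = 0.00864). Both also passed without library 2.

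**Figure D4:**
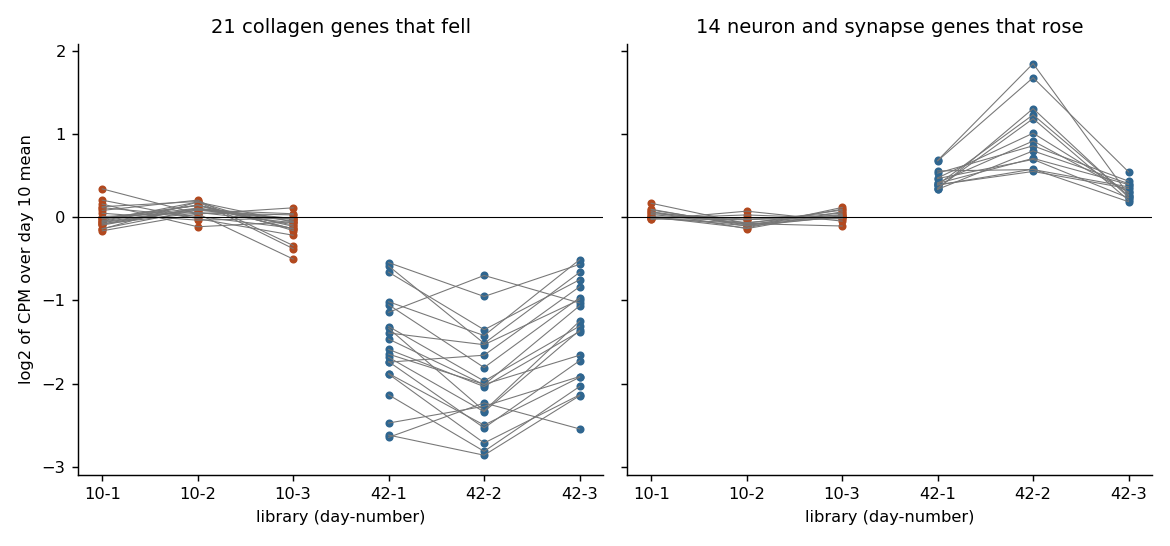
Log2 of each gene's level over its day 10 mean in the 6 libraries (day and number on the horizontal axis), for the 21 collagen genes that fell and the 14 neuron and synapse genes that rose; each line is a gene. Collagen genes are below 0 in all 3 day 42 libraries, whereas neuron genes are highest in day 42 library 2.

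The 10 genes called higher in the fit of 24 libraries changed by less than 1 log2 unit. They were Nudc, Ndufs6, Tom1l2, Psmc5, Pnkd, Limk2, Fxr2, Tnk2, Fkbp4 and Shank1, named here because no rising gene met the fold of the rule. Shank1, a scaffold of the postsynaptic density, stood at 104, 111 and 123 CPM on day 10 and 195, 191 and 180.4 CPM on day 42 (0.74 ± 0.16, q(all) = 0.0492, q(total) = 0.000654). Without library 2 it had 0.71 (q(total) = 0.00225). In the fit of total RNA without library 2, Tom1l2 (0.33, q(total) = 0.0539) and Psmc5 (0.32, q(total) = 0.0612) did not pass, and the other 8 of these 10 genes did. Nudc, a dynein cofactor, stood at 96.9, 104 and 118 CPM on day 10 and 147, 154 and 142 CPM on day 42 (0.47 ± 0.09, q(all) = 0.0202). Ndufs6, a complex I subunit gene, stood at 47, 43.2 and 52.6 CPM on day 10 and 66.3, 71.4 and 62.1 CPM on day 42 (0.48 ± 0.09, q(all) = 0.0268). In all of the 10 genes but Ndufs6 the day 42 mean lay between the day 10 mean and the naive mean, which was 231 CPM for Shank1 and 216 CPM for Fkbp4. Ndufs6 had a mean of 66.6 CPM on day 42 and 62 CPM in naive cord. Ndufs6 is not in the respiratory chain list, and without library 2 it had 0.41 (q(total) = 0.0441). Of the 44 genes of that list 5 rose (11.4%, against 2.57% of all genes) and 0 fell in the fit of total RNA (Sdha 0.34, Ndufs7 0.45, Atp5a1 0.32, Ndufv1 0.31, Ndufb10 0.36), and none of the 44 passed without day 42 library 2, whose sum of 8921 CPM stood above the 7396 and 6760 CPM of libraries 1 and 3 and the 6226 to 6570 CPM of day 10.

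Among the 20 genes that rose by more than 1 log2 unit in the fit of total RNA, 6 without day 42 library 2, were several at low levels. The heat shock gene Hspa1b stood at 1.78, 4.58 and 2.35 CPM on day 10 and 12.2, 8.51 and 9.11 CPM on day 42 (1.75 ± 0.39, q(total) = 0.0142, and 0.0296 without day 42 library 2). Its near-identical neighbour Hspa1a stood at 1.96, 2.28 and 4.96 CPM on day 10 and 7.07, 8.39 and 6.92 CPM on day 42 (1.25 ± 0.33, q(total) = 0.0328, and 0.107 without day 42 library 2), and reads of the pair may not be told apart. Zbtb16, a transcriptional repressor gene, stood at 10.9, 9.20 and 5.82 CPM on day 10 and 27.1, 16.2 and 12.4 CPM on day 42 (1.08, q(total) = 0.0204). Lgals7 had no count in any day 10 library and 0.143, 2.07 and 6.01 CPM on day 42.

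The falling genes of the fit of total RNA with the smallest p or the largest fold included several outside the lists. Ppic, a cyclophilin of the secretory pathway, stood at 29.3, 25.1 and 24.9 CPM on day 10 and 4.52, 5.12 and 6.29 CPM on day 42 (-2.34 ± 0.19, q(total) = 2.28e-06, q(all) = 0.163). Cyp1b1, a cytochrome P450 gene, stood at 54.5, 58 and 52.5 CPM on day 10 and 17.7, 11.3 and 15.6 CPM on day 42 (-1.91 ± 0.21, q(total) = 7.72e-05, q(all) = 0.0564). Adamts12, a secreted metalloprotease gene, stood at 6.91, 9.05 and 8.43 CPM on day 10 and 0.229, 0.180 and 1.11 CPM on day 42 (-4.01 ± 0.62, q(total) = 0.00122), and the collectin gene Colec10 at 6.82, 5.80 and 4.53 CPM on day 10 and 0.859, 0.240 and 0.313 CPM on day 42 (-3.61 ± 0.51, q(total) = 0.000938). Days that do not overlap were a condition for naming these 4.

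Of 30 genes of mature OLs and myelin 6 fell (against 3.79% of all genes) and 1 rose (3.33%, near the 2.57% of all genes), with a median of -0.03, and 5 passed as lower without day 42 library 2 (among them Tspan2, Cldn11, Mog and Opalin). Tspan2, a tetraspanin of OLs, was called in both fits and stood at 424, 387 and 338 CPM on day 10 and 243, 268 and 222 CPM on day 42 (-0.65 ± 0.12, q(all) = 0.0207). Cldn11, of myelin tight junctions, had -0.53, and Mog -0.37, while Mbp had 0.03 ± 0.08 and Mag -0.10 ± 0.09 and did not pass. Of 20 genes of OL precursors and new OLs 1 fell, near the 3.79% of all genes. It was Enpp6, a marker of newly formed OLs (90.5, 89.4 and 84.6 CPM on day 10 and 51, 48.5 and 65.1 CPM on day 42, log2 fold change -0.71 ± 0.12, q(total) = 0.00295), and without day 2 library 2 there were 3 lower. Of 26 Schwann cell genes 1 rose (3.85%, near the 2.57% of all genes), Drp2 (0.59, q(total) = 0.0326), which did not pass without day 42 library 2 (q(total) = 0.123).

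Astrocyte identity genes gave 3 rises (14.3%, against 2.57% of all genes) and 1 fall (4.76%, near the 3.79% of all genes) among 21. The water channel gene Aqp4 fell, standing at 1210, 1251 and 1117 CPM on day 10 and 765, 674 and 853 CPM on day 42 (-0.67 ± 0.10, q(total) = 0.00114). Among those that rose were Aldoc (0.39) and the gap junction gene Gjb6 (0.41), and the 3 rising genes did not pass without day 42 library 2. Of 25 astrocyte reactivity genes 4 fell (against 3.79% of all genes) and 0 rose, and only Emp1 passed without day 42 library 2, whose list sum of 4972 CPM lay below the 7114 and 6814 CPM of libraries 1 and 3. Emp1 stood at 53.9, 54.6 and 51.7 CPM on day 10 and 21.8, 20.3 and 27.7 CPM on day 42 (-1.22 ± 0.17, q(total) = 0.000624), and Timp1, Ptx3 and Osmr had -0.59, -0.95 and -0.65. The main intermediate filament genes of the glial scar did not pass: Gfap stood at 4356, 4684 and 4213 CPM on day 10 and 5082, 3503 and 4770 CPM on day 42 (-0.01 ± 0.16) and Vim had -0.01 ± 0.13. In endothelium 1 of 30 genes fell (3.33%, near the 3.79% of all genes) and 2 rose (6.67%, against 2.57%): Cdh5, the junction protein VE-cadherin, fell (-0.92, q(total) = 0.00991), whereas the VEGF receptor gene Flt1 (0.84, q(total) = 0.0223) and Apln (0.73, q(total) = 0.0102) rose, and all 3 passed without day 42 library 2, while leaving out day 2 library 2 gave 3 lower. Of 25 sterol synthesis genes 1 fell (4.0%, near the 3.79% of all genes), Hsd17b7 (-0.45), and without day 42 library 2 there were 4 (against 1.57% of all genes, Hmgcs1 and Sqle among them). Among 18 ependymal genes and 15 markers of cartilage, fat and other tissues edgeR called 0 in either fit.

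Levels in the other 2 groups of total RNA, given as description, place the change. The order of the group means of the 8 genes plotted by group held with day 2 library 2 left out. Col1a1 peaked on day 10, at 8.54 ± 2.28 CPM in naive cord, 154 ± 54.2 on day 2, 838 ± 54.9 on day 10 and 217 ± 62.2 on day 42. Irf7 and Cd36 peaked on day 10 as well. Mki67 was highest on day 2, Sprr1a was as high on day 2 (78.1 ± 16 CPM) as on day 10 (91.5 ± 19.2 CPM) within the spread, and Itgax and C3 were highest on day 42.

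**Figure D5:**
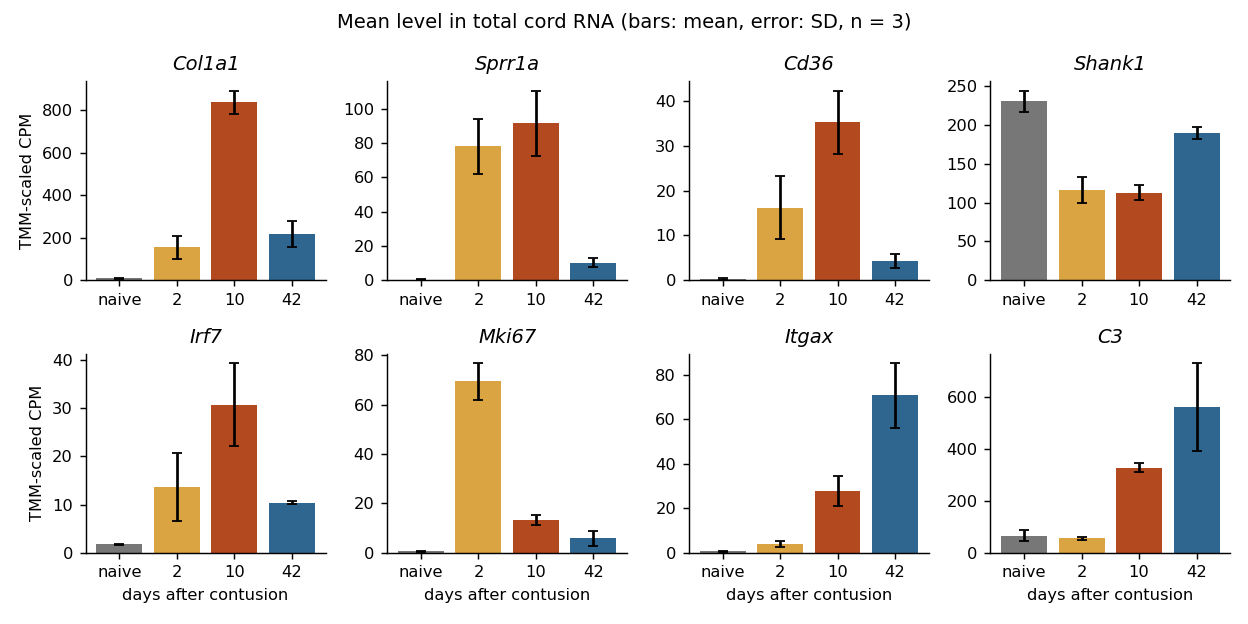
Mean level of 8 genes in total cord RNA of naive mice and 2, 10 and 42 days after contusion (bars start at 0, error bars are SD, n = 3 libraries per group). Col1a1, Cd36 and Irf7 are highest on day 10, Mki67 on day 2, Shank1 in naive cord, and Itgax and C3 on day 42.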

How the data were processed

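Total RNA and OL ribosome-bound RNA of mouse spinal cord were sequenced as polyA RNA. The authors checked reads with FastQC 0.10.1, used STAR for alignment and HTSeq 0.10.0 for gene counts (builds mm10 and GRCm38.p6 in the processing notes) and deposited raw counts of 21965 genes in 24 libraries. All columns were used. GENCODE M21 (GRCm38) gave a symbol and position to 21939 of the gene IDs.

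Genes whose counts over the libraries reached 10 were fitted in R 4.3.3 with edgeR 4.0.16 (TMM scaling, quasi-likelihood F test), with 1 mean for each of 8 groups and Benjamini-Hochberg adjustment over all tested genes. The contrast was total RNA of day 42 minus day 10. Alternatives were size factors and the Wald test of DESeq2 1.42.0, library sizes alone, other filters, fits of 12 and of 6 libraries, a replicate block, and leaving out each of the 6 libraries compared. The fit of 12 is shown beside the main one because total RNA varied less between replicates than OL RNA. DESeq2 on the 12, leaving out libraries from that fit, leaving out day 2 library 2, the same naming rule applied to it, and the CCAAT search in collagens and the AP-1 search were added after seeing the data. Scripts were tested on simulated data. No pair of replicates agreed within sampling noise (median chi-square per gene 4.27 to 9.84). Nothing in the labels says that libraries 1, 2 and 3 of the 2 days are paired. The p-values measure the change against a spread between pools of 2 mice, 3 pools per group. That spread was estimated over all groups of a fit, so q(all) also draws on the OL libraries. Both q(all) and q(total) also draw on naive and day 2 libraries.

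Genes were named by this rule: with q under 0.05, a log2 fold change past 1, days not overlapping and a mean of at least 1 CPM in the higher group, the 10 rising and 10 falling with the smallest p, and with at least 5 CPM the 5 rising and 5 falling with the largest fold. In each list up to 4 members with the smallest p were added, and members whose role matters to the account. Some genes that meet the rule are not reported here. Rising genes met the rule only in the fit of 12. The comparison, the members and the lists were chosen with earlier results of these data known. Lists are described by counts and medians, without a test of the list.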

Additional observations from a re-analysis of the deposited data

How the results depend on the processing

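Counts are given as genes lower and higher with q under 0.05, then lower and higher past 1 log2 unit; the main values are 35, 10, 13 and 0. Library sizes alone gave 77 lower, DESeq2's Wald test 150, 136 and 28 past 1 lower, the 12 total RNA libraries 645, 437, 155 and 20, the 6 libraries 737, 459, 184 and 23, and DESeq2 on the 12 libraries (added after seeing the data) 1030, 711, 206 and 35. With the replicate numbers as a replicate block, which needed total RNA without day 42 library 2, there were 204, 65, 74 and 7; the same fit without the block had 266, 109, 89 and 6. Same-numbered libraries of the 2 days correlated at -0.001 (1), -0.05 (2, a number the labels do not settle) and 0.03 (3), so they share only a number. Leaving out 1 library gave 0 to 30 lower, 0 to 19 higher, 0 to 11 past 1 lower and 0 past 1 higher in the main fit, with 0 calls without day 10 library 2 or day 42 library 2. In the fit of 12 it gave 144 to 828, 37 to 718, 72 to 210 and 4 to 27, the highest of the first 2 without day 2 library 2. Leaving out both libraries of that day 2 pool gave 40, 12, 14 and 0 in the main fit, where Col4a2 and Fabp5 no longer passed; these settings were added after seeing the data. Size factors of DESeq2, filterByExpr and every gene with a count stayed within 1.5 times of the main counts.

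None of the 45 genes called in the main fit changed sign under any of these settings. The 12-library fit kept 45 of 45, the 6-library fit 44, DESeq2's test 43 and the replicate block 38. The genes that DESeq2's test on all libraries did not call were Cd36 and Col6a3, with log2 fold changes of -3.05 and -1.75 there. The fits of 24 and 12 libraries differ in the libraries that set the spread (coefficient of variation 0.299 and 0.189). Past 1 log2 unit the main fit called 13 genes lower, against 155 in the fit of 12, so large changes missed its threshold too. A gene that did not pass is not shown to be unchanged. Levels under 0.111 CPM rest on 3 counts or fewer.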
